A study of Mus musculus with 12 samples.

Results

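The comparison described here is that of mouse liver 24 h against 12 h after removal of 2/3 of the organ (partial hepatectomy). Its members were chosen by sample title alone: the 3 arrays at 24 h and the 3 at 12 h, that is 6 of the 12 arrays of the study, and every probe on them. All animals were male C57BL/6 mice 6 weeks old, and the other 2 time points of the series, 0 and 1.5 h, each also with 3 arrays, entered only to share the estimate of the spread. Every animal had the same operation, and no sham-operated group is among these samples, so the time since surgery cannot be told apart from the hour of day, which the labels do not give. The labels describe 3 mice per time point and do not say that mice were pooled. Total RNA of fresh liver was labelled with Cy3 and hybridised to a 1-colour array with probes for coding and long noncoding transcripts.

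The remnant of a resected liver regrows by division of hepatocytes that are normally at rest. A priming phase of cytokine signalling and early transcription factors is followed by progression through G1, in which replication origins are licensed by loading of the MCM helicase, and then by DNA synthesis, for which E2F factors switch on polymerase, clamp and nucleotide genes. While it regrows, the organ must keep up the blood glucose, bile acid, lipid, urea and plasma protein work of the whole liver. The step from 12 to 24 h lies between the early response and the bulk of hepatocyte division in the mouse.

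The arrays were not equally good. The 75th percentile of the signal, from 428.5 to 583.7 on the other 11 arrays, stood at 6018 on 24 h replicate 2, whose highest normalized log2 signal was 7.12, against 8.94 to 10.15 on the others. Across all kept probes 24 h replicate 2 correlated at 0.912 and 0.906 with the other arrays of its time point, which correlated with each other at 0.986, and the 12 h arrays correlated among themselves at 0.972 to 0.984. The file headers give a scan date, and arrays with the same scan date were taken to share a slide. By this, 12 h replicates 1 and 2 lay on slide 2, and 12 h replicate 3 with 24 h replicates 1 and 3 on slide 3. The 24 h replicate 2 array lay on slide 4. Slide and scan date therefore cannot be told apart here. The median local background was 37 to 37.5 on the 12 h arrays of slide 2, 99 to 112 on slide 3 and 230.5 on slide 4. List counts and the main genes are therefore given in 3 readings: with all arrays, without 24 h replicate 2, and within slide 3, where 24 h replicates 1 and 3 stand against 12 h replicate 3 alone. For other genes that passed with all arrays, the adjusted p in another reading is given where they did not pass there. The values of a gene are normalized log2 signals, on which 0 is the 75th percentile of the array, given in the order of replicates 1 to 3. Differences are 24 h minus 12 h on the log2 scale with their standard errors (SE; n = 3 and 3, or 3 and 2 without the distorted array), and a gene is said to have risen or fallen where its Benjamini-Hochberg adjusted p in limma's moderated test was under 0.05 with all arrays. Nothing in the labels says more than that the samples of a group are separate mice. The p-values rest on a spread pooled over the arrays of all 4 time points in each fit, not on the 6 arrays compared alone. Within slide 3 the 12 h side is replicate 3 alone, which adds nothing to that spread. The p-values of that reading therefore take their spread from other arrays.

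Of 31168 probes kept, 4063 passed the threshold with all arrays, 1951 higher at 24 h (6.26% of the probes tested) and 2112 lower (6.78%). Without 24 h replicate 2 there were 4916, with 2610 higher (8.37%) and 2306 lower (7.4%), and within slide 3 there were 2771, with 1641 higher (5.27%) and 1130 lower (3.63%). In all 3 readings, which share 12 h replicate 3 and 24 h replicates 1 and 3, 1517 probes passed in the same direction (37.3% of the 4063), 965 of them higher and 552 lower. Both groups of 3 arrays were free of overlap for 4486 probes higher at 24 h (14.4%) and for 8477 lower (27.2%).

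These counts moved with the treatment of background and with single arrays. After normexp background correction 191 probes passed, of which 90.1% were higher, against 48% in the values reported, and without 24 h replicate 2 363 passed, of which 82.4% were higher. When the spread was estimated from the 12 h and 24 h arrays alone, limma called 0 probes with all arrays, with 6755 at an unadjusted p under 0.05, and 1710 without 24 h replicate 2. Leaving out 12 h replicate 1 gave 384, leaving out 12 h replicate 2 gave 1226 and leaving out 24 h replicate 3 gave 10795. Of the genes named below 179 passed with all arrays, 103 of them also within slide 3 and 33 after normexp, among them Mvk, Dhcr7, Hmgcs1, Klb, Bdh1, Slc2a2, Pfkfb1, Cyp2a4, Cyp2b10 and Tm4sf20. The median difference over all probes was -0.49 with all arrays, -0.22 without 24 h replicate 2 and -0.15 within slide 3, and it was -0.09 after quantile normalization and -0.95 after normexp. After normexp 122 coding genes rose and 14 fell with all arrays, and of the lists below the P450 list had 4 members fallen there, the adipose, carrier and female lists 1 each and the others 0.

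Among coding genes, each represented by its brightest probe, 1292 of 16824 rose (7.68%) and 971 fell (5.77%). Without 24 h replicate 2 the counts were 1747 (10.4%) and 1163 (6.91%), and within slide 3 1029 (6.12%) and 604 (3.59%). The median difference of coding genes was -0.17, -0.09 and -0.09 in the 3 readings. The counts and medians of the lists are to be read against these values. The gene lists used below name 1120 entries, of which 1063 were measured. Because whole pieces of liver were extracted, fewer cells of a type and less RNA per cell cannot be told apart.

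**Figure D1:**
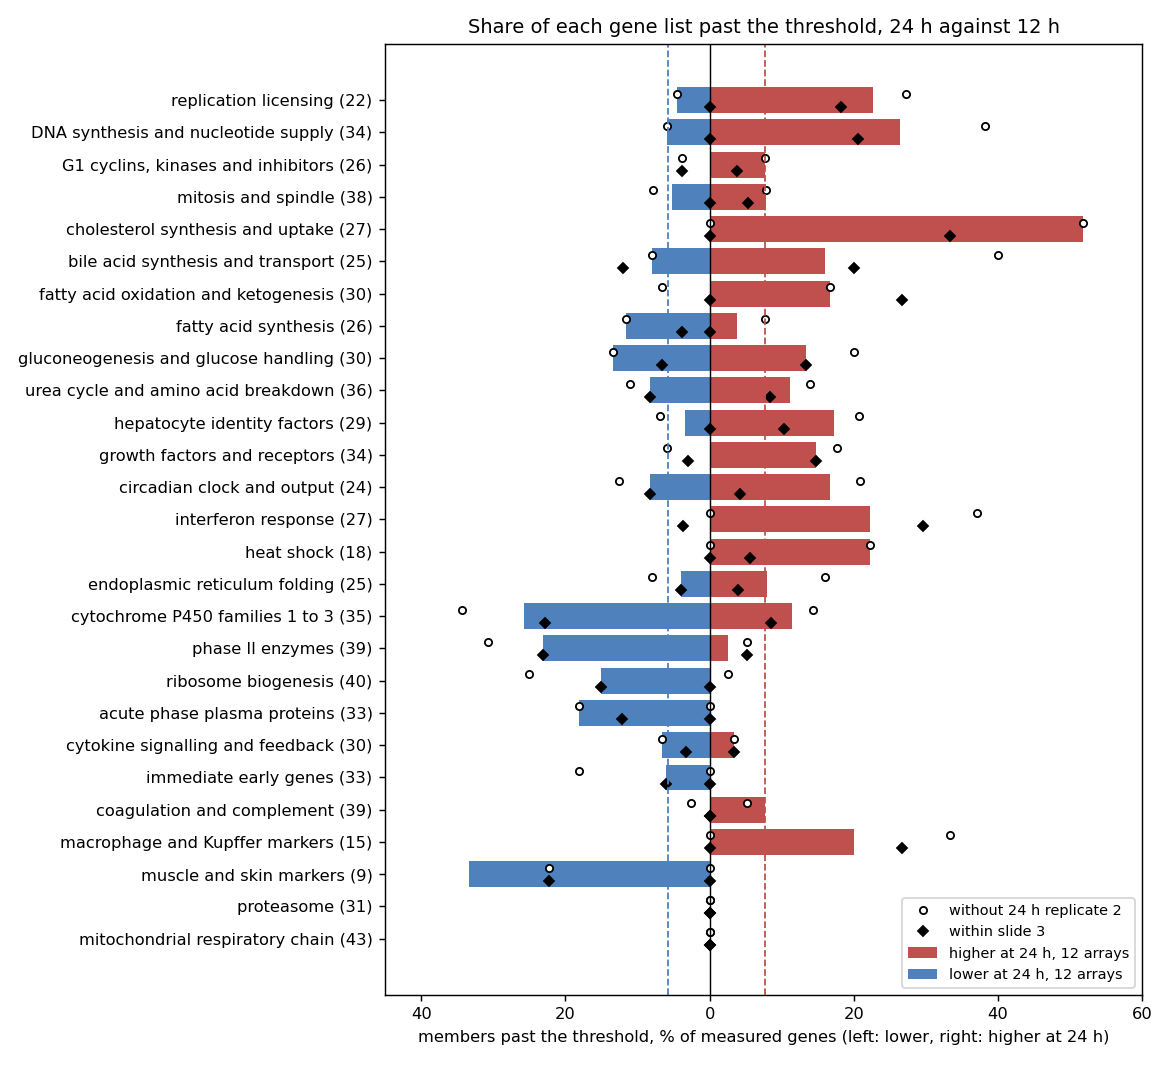
Bars show the percentage of each list's measured genes (number in brackets) that passed the threshold with all arrays, higher at 24 h to the right and lower to the left. Open circles give the same without 24 h replicate 2 and diamonds within slide 3, and dashed lines mark the percentages over all coding genes, 7.68 and 5.77; the cholesterol list reaches 14 of 27 to the right and has none to the left.

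The coding genes with the largest rises were led by Fam89a, which read -5.09, -3.75 and -5.05 at 12 h and 2.05, -0.42 and 0.7 at 24 h. All arrays of 24 h lay above those of 12 h, and the difference was 5.41 ± 0.55 (SE; adjusted p = 0.00161), 6 (adjusted p = 0.000416) without 24 h replicate 2 and 6.43 (adjusted p = 0.00393) within slide 3. Gm4952 read -0.31, 0.79 and -0.6 at 12 h and 4.75, 4.59 and 4.31 at 24 h, a rise of 4.59 ± 0.45 (adjusted p = 0.00161). Apol7a, a member of the apolipoprotein L family, read -1.23, -0.89 and -1.33 at 12 h and 3.65, 2.43 and 2.44 at 24 h and rose by 3.99 ± 0.36 (adjusted p = 0.00161). Each of these genes was separated between the groups by more than 2 log2 units on every array. Sdr9c7, a short-chain dehydrogenase, rose by 3.87 ± 0.46 (adjusted p = 0.00257), Rtn4rl1, of the Nogo receptor family, by 3.72 ± 0.52 (adjusted p = 0.00422), and the kinase Sgk2 by 3.62 ± 0.45 (adjusted p = 0.00305). Tmem25 rose by 4.29 ± 0.97 (adjusted p = 0.0244; 4.97 and 0.0112 without 24 h replicate 2), although its 12 h arrays spread from -6.34 to -1.57. Derl3, a factor that takes misfolded proteins out of the endoplasmic reticulum, rose by 3.63 ± 0.93 (adjusted p = 0.035; 0.0935 within slide 3), with 12 h arrays from -1.4 to 2.77. Dnaic1, an axonemal dynein chain, was not well above background on any 12 h array and was at least 9.18-fold higher at 24 h, a bound that takes, on each 12 h array, the lowest signal well above background or the probe's own where that was higher. Olfr1033, an olfactory receptor gene, was well above background on 1 of 3 arrays at 12 h and rose by 4.17 ± 0.5 (adjusted p = 0.00269). Of the other called genes named here, Fam89a, Tmem25, Cenpa, E2f2, Gas1, Gins2, Ifit3, Kynu, Lgr5, Pole2, uc007gsq and uc007hpe were well above background on 2 of 3 arrays at 12 h and on all at 24 h.

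The largest fall was that of Tm4sf20, a tetraspan membrane protein, which read 2.49, 0.54 and 2.61 at 12 h and -3.98, -3.4 and -5.43 at 24 h. The groups lay more than 3 log2 units apart, with a difference of -6.14 ± 0.62 (SE; adjusted p = 0.00161), -6.58 (adjusted p = 0.000861) without 24 h replicate 2 and -7.31 (adjusted p = 0.00655) within slide 3. Only 2 of its 3 arrays at 24 h were well above background, so the size of the fall is uncertain. At 0 h Tm4sf20 had read -7.3 to -6.44, under the lowest signals well above background on those arrays, -5.12 to -4.5. The value on 24 h replicate 3 was also under that limit of its array, -4.68. Only 24 h replicates 1 and 2 can therefore be placed between the levels at 0 and 12 h. Inmt, an amine N-methyltransferase, read 7.65, 6.95 and 7.26 at 12 h and 3.18, 4.35 and 3.61 at 24 h and fell by 3.57 ± 0.35 (adjusted p = 0.00161), 11.9-fold, from a 12 h level close to the 7.83 to 8.16 read at 0 h. Serpina3f, a protease inhibitor of the acute phase family, fell 15.5-fold and G6pc2, a glucose-6-phosphatase subunit known from pancreatic islets, 13.8-fold, and in both the lowest of the 3 arrays at 24 h was replicate 2. Without that array the falls were 8.24-fold and 5.81-fold (adjusted p = 0.00601 and 0.00961). 1700042G07Rik (-3.47 ± 0.73, adjusted p = 0.0199; -2.56 and 0.0133 without 24 h replicate 2; 0.0503 within slide 3) and the olfactory receptor gene Olfr623 (-3.26 ± 0.71, adjusted p = 0.0225; -2.37 and 0.0155 without 24 h replicate 2; 0.0926 within slide 3), well above background on 1 of 3 arrays at 24 h, also fell. Casp14, a caspase of the epidermis, and the olfactory receptor gene Olfr1128 were well above background on 2 of 3 arrays at 12 h and on none at 24 h, and were at least 5.26-fold and 3.21-fold lower than at 12 h. Olfr1128 did not pass within slide 3 (adjusted p = 0.149).

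Another group of genes had large differences that passed without 24 h replicate 2 and not with it. Keg1 read -2.96, -3.21 and -3.94 at 12 h and 0.89, -3.32 and -0.58 at 24 h, Prtn3, a neutrophil serine protease, read -0.14, -0.61 and -0.68 at 12 h and 3.56, -0.85 and 1.69 at 24 h, and Apol9b read 2.42, 1.79 and 2.61 at 12 h and 5.31, 1.45 and 4.35 at 24 h. In each of them 24 h replicate 2 lay inside or below the 12 h range while the other arrays of 24 h lay above it. Their differences without it were 3.52 (adjusted p = 0.00131), 3.1 (0.0025) and 2.56 (0.00345), and BC024139 differed by 2.52 (0.00444). In the other direction Cd28, a co-stimulatory receptor of T cells, read -0.77, -1.28 and -0.46 at 12 h and -5.45, -1.11 and -3.8 at 24 h. Lepr, the leptin receptor, read 2.27, 2.16 and 2.24 at 12 h and -1.85, 4.19 and 0.09 at 24 h. Gpcpd1, a glycerophosphodiesterase, read 2.76, 2.49 and 2.96 at 12 h and -0.16, 4.07 and -0.19 at 24 h. For Lepr and Gpcpd1, 24 h replicate 2 was the highest of all 6 arrays and the other 24 h arrays were the lowest. Without it the differences were -3.79 for Cd28, -3.1 for Lepr, -2.91 for Gpcpd1 and -3.89 for Vwa2, an extracellular matrix protein (adjusted p = 0.00375, 0.0134, 0.00239 and 0.0038). With all arrays none of these 8 genes passed (adjusted p = 0.0643 to 0.355). Vwa2 read -7.25 and -5.77 on 24 h replicates 1 and 3, under the lowest signals well above background there, -5.14 and -4.68. Cd28 was well above background on 2 of 3 arrays at 24 h. The sizes of the differences of Vwa2 and Cd28 are therefore uncertain.

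Of the genes that license origins for replication, 5 of 22 measured rose and 1 fell, against 7.68% and 5.77% of coding genes, with 6 and 1 without 24 h replicate 2 and 4 and 0 within slide 3. Mcm10, which helps to activate the loaded helicase, read 0.19, 0.83 and 0.23 at 12 h and 3.66, 1.6 and 2.85 at 24 h. Every 24 h array was above every 12 h array, and all were below the 4.23 to 4.64 read at 0 h. The difference was 2.29 ± 0.45 (SE; adjusted p = 0.0155), 2.84 (adjusted p = 0.00112) without 24 h replicate 2 and 3.03 (adjusted p = 0.00979) within slide 3. Gmnn, encoding geminin, the inhibitor that prevents a second round of licensing, read -0.98, -0.68 and -0.44 at 12 h and 0.49, 0.51 and 1.21 at 24 h and rose by 1.44 ± 0.26 (adjusted p = 0.0124). Its 24 h arrays lay within or below the 0.98 to 1.23 read at 0 h. Gins2, of the GINS complex of the active helicase, rose by 1.31 ± 0.3 (adjusted p = 0.0249), and Cdt1, the loading factor that geminin binds, by 1.16 ± 0.29 (adjusted p = 0.033). Cdt1 did not pass within slide 3 (difference 1.03). At 24 h Cdt1 lay within its 0 h range of -0.32 to 0.42, and Gins2 within and above its 0 h range of -3.67 to -2.99. Mcm6, a helicase subunit, read -0.94, -0.8 and -0.7 at 12 h and 0.31, 0.71 and 0.47 at 24 h and rose by 1.31 ± 0.26 (SE; adjusted p = 0.0157), 1.2 (adjusted p = 0.0108) without 24 h replicate 2 and 1.09 (adjusted p = 0.0335) within slide 3. The origin recognition subunit Orc3 fell by 1.54 ± 0.45 (adjusted p = 0.0473) and by 0.97 (adjusted p = 0.0464) without 24 h replicate 2, and did not pass within slide 3 (adjusted p = 0.175).

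The other helicase subunits measured did not pass in any reading. Mcm2 read -1.43, -1.13 and -1.41 at 12 h and -0.87, -2.56 and -0.48 at 24 h, Mcm3 read -1.18, -1.47 and -0.6 at 12 h and -0.97, -0.45 and -1.08 at 24 h and Mcm4 read -1.44, -2.2 and -1.95 at 12 h and -2.09, -1.64 and -1.97 at 24 h. Their groups overlapped, with differences of 0.02, 0.25 and -0.04. Mcm7 read 1.35 to 1.42 at 12 h and 1.61, 3.26 and 1.87 at 24 h (difference 0.87, adjusted p = 0.11). The median of the licensing list was 0.14 with all arrays and 0.06 without 24 h replicate 2, and it was -0.04 within slide 3 and -0.26 after normexp, where 0 members passed with all arrays and Gins2 differed by -0.42.

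The Mcm6 promoter is shown because it was the only one of a licensing or synthesis gene that rose in which an E2F-type match was found. The letters searched were TTTNNCGC on either strand, in the 250 bases before the gene's start in RefSeq (build GRCm38.p6). They are held by 4.28% of all promoter windows and by 4.94% of all genes with a window. List members are counted per gene, a match in any of a gene's windows being enough. Of the 14 licensing and synthesis genes that rose 9 had a promoter entry and 1 held a match, and of all 47 measured members with an entry 9 did (19.1%). The Mcm6 stretch, chr1:128359715-128359845 on the minus strand, runs from 140 to 10 bases before the start, with its 3 matches in capitals, 2 of which overlap.
Mcm6: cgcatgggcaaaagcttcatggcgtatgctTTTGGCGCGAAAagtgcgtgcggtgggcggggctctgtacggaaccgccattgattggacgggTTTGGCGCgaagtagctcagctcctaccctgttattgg

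DNA synthesis and nucleotide genes had 9 of 34 risen and 2 fallen, 13 and 2 without 24 h replicate 2, and 7 and 0 within slide 3. Chaf1a, a subunit of the chromatin assembly factor that loads histones behind the fork, read -4.68, -4.54 and -3.87 at 12 h and -2.85, -2.61 and -2.15 at 24 h. No array of one group reached the other, and Chaf1a rose by 1.83 ± 0.33 (SE; adjusted p = 0.0116), 1.87 (adjusted p = 0.00813) without 24 h replicate 2 and 1.37 (adjusted p = 0.0364) within slide 3. All 24 h arrays of Chaf1a lay below the -2.1 to -1.67 read at 0 h. Pole, the leading-strand polymerase subunit, rose by 1.36 ± 0.4 (adjusted p = 0.0477) and Lig1, the ligase that joins Okazaki fragments, by 1.12 ± 0.3 (adjusted p = 0.039). Rpa1, which coats single-stranded DNA, read -2.46, -2.41 and -2.29 at 12 h and -0.88, 0.94 and -1.25 at 24 h. Its 24 h replicate 2 was by far the highest, and the rise of 1.99 became 1.32 without it (adjusted p = 0.0301 and 0.0102). The primase subunit Prim2 (1.29 ± 0.31, adjusted p = 0.0295; 0.0735 within slide 3), the clamp loader Rfc1 (1.29 ± 0.27, adjusted p = 0.0192; 0.0565 within slide 3), Pole2 (1.02 ± 0.27, adjusted p = 0.0386; 0.108 within slide 3) and Pola2 (0.74 ± 0.22, adjusted p = 0.0487; 0.126 within slide 3) also rose with all arrays.

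Some genes of the same list went the other way or were called only in part of the readings. Rrm1, the large subunit of ribonucleotide reductase, read 1.28, 1.7 and 1.43 at 12 h and 0.63, -0.41 and 0.49 at 24 h and fell by 1.24 ± 0.31 (adjusted p = 0.0324; 0.0912 within slide 3), and Tyms, thymidylate synthase, fell by 1.07 ± 0.25 (adjusted p = 0.0279; 0.0552 within slide 3). Tk1, thymidine kinase, read -0.76, -1.46 and -1.27 at 12 h and 0.76, -1.6 and -0.34 at 24 h, and passed only without 24 h replicate 2 (1.38, adjusted p = 0.028), as did Pold1 (0.87, adjusted p = 0.0254). The clamp loader subunits Rfc2 and Rfc5 passed without 24 h replicate 2 and within slide 3 (differences 1.06 and 1.03 in the first). Pcna, the sliding clamp, read 2.21, 1.96 and 2.39 at 12 h and 1.94, 1.86 and 2.22 at 24 h, with overlapping groups and a difference of -0.18 (adjusted p = 0.578). Rrm2, the small reductase subunit, differed by 0.01 ± 0.42. The list's median was 0.31, 0.38 and 0.32 in the 3 readings, and it was -0.04 after normexp, where no member passed and Pole (-0.52), Pole2 (-0.59), Chaf1a (-0.18) and Lig1 (-0.01) lay below 0.

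**Figure D2:**
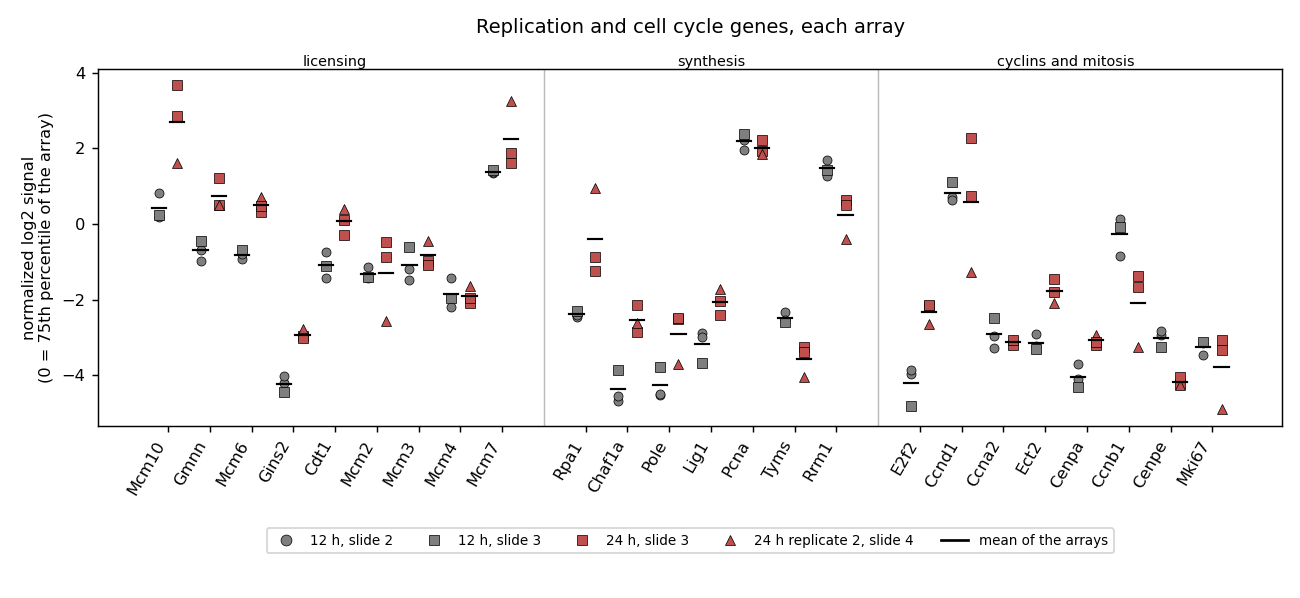
Normalized log2 signal (vertical axis, 0 = 75th percentile of the array) of replication and cell cycle genes on each 12 h (grey) and 24 h (red) array, with the slide given by the marker and a line at the group mean. Mcm10, Chaf1a and E2f2 are separated between the groups, Mcm2, Mcm3, Mcm4 and Pcna overlap, and the 24 h replicate 2 triangle often lies away from the red squares.

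Among G1 cyclins, kinases and inhibitors 2 of 26 rose, near the 7.68% over coding genes, and 0 fell. The other readings gave 2 and 1 (without 24 h replicate 2) and 1 and 1 (within slide 3). After normexp 0 passed. E2f2, an E2F activator, read -3.96, -3.87 and -4.8 at 12 h and -2.18, -2.64 and -2.14 at 24 h and rose by 1.89 ± 0.33 (SE; adjusted p = 0.0107), 2.05 (adjusted p = 0.00496) without 24 h replicate 2 and 2.64 (adjusted p = 0.00919) within slide 3, while after normexp it differed by -0.3. Ccnd3, a D-type cyclin, rose by 1 ± 0.29 (adjusted p = 0.0489; 0.71 and 0.0542 without 24 h replicate 2; 0.252 within slide 3). The 24 h arrays of E2f2 lay within or below the -2.39 to -1.44 read at 0 h. Ccnd1, the D-type cyclin most tied to hepatocyte entry into the cycle, read 0.72, 0.64 and 1.12 at 12 h and 2.27, -1.28 and 0.75 at 24 h. Its 24 h arrays spread over more than 3 log2 units around the 12 h arrays, and the difference was -0.25 ± 0.67 (adjusted p = 0.781). Cdkn1a, the p21 inhibitor, read 0.06 to 1.51 at 12 h and -1.45 to 0.35 at 24 h (difference -1.5, adjusted p = 0.0555). Cdkn1c passed only without 24 h replicate 2, at 1.01 (adjusted p = 0.0426).

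The mitosis list had 3 of 38 risen and 2 fallen, near the background in both directions, with 3 and 3 without 24 h replicate 2 and 2 and 0 within slide 3. Ect2, an exchange factor needed for cytokinesis, rose by 1.36 ± 0.28 (adjusted p = 0.0175), Cenpa, the centromeric histone, by 0.97 ± 0.23 (adjusted p = 0.0295), although it differed by -0.62 after normexp, and Wee1, the kinase that holds cells before mitosis, by 1.61 ± 0.44 (adjusted p = 0.0403; 0.113 within slide 3). At 24 h Cenpa lay below its 0 h range of -2.46 to -2.42, and Ect2 within and above its 0 h range of -2.45 to -1.74. Ccnb1, the mitotic cyclin, read 0.12, -0.86 and -0.07 at 12 h and -1.37, -3.24 and -1.68 at 24 h. Its 24 h arrays were all below the 12 h arrays, and it fell by 1.83 ± 0.45 (adjusted p = 0.0323), and the kinetochore motor Cenpe fell by 1.18 ± 0.25 (adjusted p = 0.0203). Neither passed within slide 3 (adjusted p = 0.0614 and 0.0886). Mki67 (-0.52), Ccna2 (-0.2), Top2a (-0.63) and Foxm1 (-0.8) did not pass in any reading. The median of the mitosis list was -0.48, -0.29 and -0.21 in the 3 readings and 0.05 after quantile normalization.

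The genes of cholesterol synthesis and uptake gave the largest share of rises of any pathway list: 14 of 27 measured rose and 0 fell, against 7.68% and 5.77% of coding genes. The same counts, 14 and 0, were found without 24 h replicate 2, and 9 and 0 within slide 3, all 9 of which passed in all readings. With all arrays 26 of 27 differences were above 0. The median was 1.32, 0.95 and 0.91 in the 3 readings and 1.54 after normexp, where 5 members passed, all higher. These genes are switched on by SREBP2 when cell sterols are low.

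Hmgcs1, which makes the HMG-CoA of the pathway, read 4, 4.85 and 4.19 at 12 h and 6.21, 6.1 and 6.23 at 24 h. The lowest 24 h array was 1.25 above the highest 12 h array, and the rise was 1.83 ± 0.34 (SE; adjusted p = 0.0125), 1.87 (adjusted p = 0.00865) without 24 h replicate 2 and 2.03 (adjusted p = 0.015) within slide 3. Mvk, mevalonate kinase, read 1.49, 1.89 and 1.94 at 12 h and 4.05, 3.56 and 3.63 at 24 h and rose by 1.97 ± 0.27 (SE; adjusted p = 0.00394), 2.06 (adjusted p = 0.00169) without 24 h replicate 2 and 1.9 (adjusted p = 0.0113) within slide 3. Dhcr7, which makes the last step to cholesterol, read 2.79, 2.82 and 3.1 at 12 h and 5.21, 4.65 and 4.75 at 24 h. Its groups were as clearly apart, at 1.97 ± 0.26 (SE; adjusted p = 0.00354), 2.08 (adjusted p = 0.00127) without 24 h replicate 2 and 1.88 (adjusted p = 0.00846) within slide 3, a 3.91-fold rise, and its 24 h arrays lay below the 5.35 to 5.54 read at 0 h. Sc5d, the sterol desaturase, rose 3.98-fold (adjusted p = 0.0121), Idi1, which isomerises the isoprene unit, 3.5-fold (0.0124), and Acat2, the cytosolic thiolase, 2.84-fold (0.027).

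Other members of the list passed in part of the readings or in none. Scap, which escorts the SREBPs out of the endoplasmic reticulum, rose by 0.98 ± 0.26 (adjusted p = 0.0374; 0.157 within slide 3) with all arrays. Sqle (0.88, adjusted p = 0.0573), Insig1 (0.71, 0.14) and Srebf2 itself (0.34, 0.579) did not pass with all arrays. Msmo1 rose by 2.44 ± 0.58 (adjusted p = 0.0291; 1.69 and 0.0197 without 24 h replicate 2; 0.052 within slide 3) and Fdps by 1.81 ± 0.46 (adjusted p = 0.0347; 0.0921 within slide 3).

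The letters TCACNCCAC, a sterol-type element, were searched in the same 250 bases on both strands. They are held by 1.05% of all promoter windows and by 1.22% of all genes with a window. Of the 14 cholesterol genes that rose 11 had a promoter entry and 1, Hmgcs1, held a match, which was also the only match among 19 measured members with an entry (5.26%). Its stretch, chr13:119690184-119690252 on the plus strand, runs from 167 to 99 bases before the start and is shown for that match, in capitals.
Hmgcs1: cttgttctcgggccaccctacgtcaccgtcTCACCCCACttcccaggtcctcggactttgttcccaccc

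The lists split over lipid synthesis. Of 26 genes of fatty acid synthesis 1 rose, the acyltransferase Gpam, which did not pass without 24 h replicate 2 (1.17, adjusted p = 0.058) or within slide 3 (0.121), and 3 fell. The counts were 2 and 3 without 24 h replicate 2 and 0 and 1 within slide 3. Thrsp, a lipogenic regulator, read 5.61, 2.99 and 5.46 at 12 h and 2.04, 0.65 and 2.15 at 24 h and fell 8.4-fold (adjusted p = 0.0203). Fasn, fatty acid synthase, read 0.6 to 1.1 at 12 h and -1.32 to -0.01 at 24 h and fell 2.51-fold (0.0349), and Scd1, the stearoyl-CoA desaturase, fell 2.25-fold (0.029). All 3 fell without 24 h replicate 2 too and none passed within slide 3 (adjusted p = 0.055 to 0.135). The median of the fatty acid synthesis list was 0.02, 0.04 and -0.2.

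Of 25 bile acid genes 4 rose and 2 fell, 10 and 2 passed without 24 h replicate 2, and 5 and 3 within slide 3. Klb, beta-klotho, the co-receptor with which FGFR4 receives the intestinal FGF15 signal that holds down bile acid synthesis, read -1.85, -2.02 and -2.45 at 12 h and 1.9, 1.07 and 1.46 at 24 h. Its 24 h arrays lay close to the 1.21 to 1.6 read at 0 h and far above the 12 h arrays. The difference was 3.58 ± 0.28 (SE; adjusted p = 0.0014), 3.78 (adjusted p = 0.000157) without 24 h replicate 2 and 4.13 (adjusted p = 0.00212) within slide 3, a rise of 12-fold. Fgfr4 read 1.06, 0.7 and 1.58 at 12 h and 2.77, 0 and 2.34 at 24 h, and passed only without 24 h replicate 2 (1.45, adjusted p = 0.00946). Nr5a2, the LRH-1 receptor that activates bile acid synthesis genes, rose by 1.68 ± 0.37 (SE; adjusted p = 0.0225), 1.24 (adjusted p = 0.0112) without 24 h replicate 2 and 1.2 (adjusted p = 0.029) within slide 3.

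Cyp7a1, whose hydroxylation of cholesterol limits the rate of bile acid synthesis, read -3.74, -3.66 and -4.46 at 12 h and 1.75, -3.55 and -0.05 at 24 h. The groups did not overlap, but 24 h replicate 2 was only 0.11 above the highest 12 h array. The difference was 3.33 ± 1.01 (adjusted p = 0.0516) with all arrays, 4.8 (0.00114) without it and 5.31 (0.00937) within slide 3. Cyp8b1, which makes cholic acid, read 3.65, 4.86 and 3.81 at 12 h and 7.03 and 5.22 on 24 h replicates 1 and 3, its spot on replicate 2 having been dropped. It rose by 2.02 ± 0.58 (adjusted p = 0.0485; 0.0887 within slide 3) on these arrays. Abcb4, the phospholipid exporter of bile, read 4.03, 4.09 and 4.24 at 12 h and 6.02, 5.28 and 5.9 at 24 h and rose by 1.62 ± 0.26 (SE; adjusted p = 0.00784), 1.84 (adjusted p = 0.00112) without 24 h replicate 2 and 1.72 (adjusted p = 0.00979) within slide 3.

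Among transporters of bile acids, calls went in both directions. Slco1b2, a hepatocyte uptake carrier, read 3.76, 2.84 and 3.77 at 12 h and 5.75, 2.89 and 5.53 at 24 h, so that 24 h replicate 2 sat with the 12 h arrays, and it passed only in the other readings (2.19, adjusted p = 0.00187; 1.87, 0.0222). Abcb11, the bile salt export pump, and Nr0b2, the SHP repressor, passed only without 24 h replicate 2 (1.42 and 1.59, adjusted p = 0.0403 and 0.0282). Slc51b, a subunit of the basolateral exporter that sends bile acids back to blood, read -0.23, -1.33 and 0.57 at 12 h and -2.14, -4.59 and -2.58 at 24 h. It fell in every reading, by 2.77 ± 0.61 with all arrays (adjusted p = 0.0228) and by 2.03 (0.0163) without 24 h replicate 2, and Slco1a1, another uptake carrier, fell by 1.27 ± 0.28 (0.023).

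Genes of fatty acid oxidation and ketone production had 5 of 30 risen and 0 fallen, with 5 and 2 without 24 h replicate 2 and 8 and 0 within slide 3. Ppara, the nuclear receptor that drives this programme, read 1.47, 2.43 and 2.31 at 12 h and 3.67, 4.9 and 3.64 at 24 h and rose by 2 ± 0.39 (adjusted p = 0.0148; 0.0572 within slide 3). Cyp4a14, a fatty acid hydroxylase under its control, read 3.87, 4.6 and 1.12 at 12 h and 6.54, 6.78 and 6.57 at 24 h. Its 24 h arrays agreed to within 0.24 while 12 h replicate 3 was more than 2 below the other 12 h arrays, and the rise was 3.43 ± 0.79 (SE; adjusted p = 0.0259), 3.35 (adjusted p = 0.0331) without 24 h replicate 2 and 5.43 (adjusted p = 0.00672) within slide 3. Bdh1, which interconverts ketone bodies, rose by 2.24 ± 0.33 (SE; adjusted p = 0.00509), 1.9 (adjusted p = 0.00205) without 24 h replicate 2 and 1.66 (adjusted p = 0.0205) within slide 3. Vnn1, a pantetheinase, read 0.65, 0.79 and 0.64 at 12 h and 2.37, 3.19 and 2.57 at 24 h, with 0 h values of 0.29 to 0.76, and rose by 2.02 ± 0.27 (adjusted p = 0.00365). Pdk4, which diverts pyruvate from oxidation, passed as lower only without 24 h replicate 2 (-2.07, adjusted p = 0.0384). Cpt1a, the carnitine transferase of mitochondrial import, differed by 0.38 ± 0.33.

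Glucose genes were split, with 4 of 30 risen and 4 fallen, 6 and 4 without 24 h replicate 2 and 4 and 2 within slide 3. Their median was 0.39, 0.17 and -0.11. Slc2a2, the GLUT2 transporter, read 1.21, -0.32 and 0.52 at 12 h and 2.67, 3.4 and 2.88 at 24 h, without overlap and below the 4.52 to 4.8 of 0 h. It rose by 2.52 ± 0.42 (SE; adjusted p = 0.00858), 2.31 (adjusted p = 0.00856) without 24 h replicate 2 and 2.26 (adjusted p = 0.0379) within slide 3. Pfkfb1, the enzyme that sets the level of fructose-2,6-bisphosphate, read 1.3, 2.08 and 1.8 at 12 h and 3.97, 4.18 and 4.34 at 24 h and rose 5.42-fold (adjusted p = 0.00275). The glycogen-targeting subunits Ppp1r3c and Ppp1r3b of protein phosphatase 1 rose 5.32-fold (0.00809) and 5.25-fold (0.00985; 0.0575 within slide 3). G6pc (1.9, adjusted p = 0.0624) and Pck1 (0.69, 0.201), the key enzymes of glucose output, did not pass. Irs2, an adaptor of the insulin receptor, read 3.6, 2.98 and 2.03 at 12 h and 1.26, -0.15 and 0.09 at 24 h and fell 5.54-fold (0.0272), and did not pass within slide 3 (-1.36, 0.302).

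Of 36 urea cycle and amino acid genes 4 rose and 3 fell, 5 and 4 without 24 h replicate 2 and 3 and 3 within slide 3. Kynu, kynureninase of tryptophan breakdown, read -4.84, -4.11 and -6.27 at 12 h and -1.3, -2.14 and -1.67 at 24 h, above its 0 h range of -3.96 to -2.87, and rose by 3.37 ± 0.5 (SE; adjusted p = 0.00535), 3.59 (adjusted p = 0.00336) without 24 h replicate 2 and 4.78 (adjusted p = 0.00424) within slide 3. Glud1, glutamate dehydrogenase, rose by 1.76 ± 0.26 (SE; adjusted p = 0.00535), 1.53 (adjusted p = 0.00191) without 24 h replicate 2 and 1.63 (adjusted p = 0.0111) within slide 3 and Gldc, of the glycine cleavage system, by 1.39 ± 0.23 (SE; adjusted p = 0.00831), 1.22 (adjusted p = 0.0029) without 24 h replicate 2 and 1.23 (adjusted p = 0.0149) within slide 3. Ftcd, of histidine breakdown, rose 3.1-fold (adjusted p = 0.0299; 0.0581 within slide 3). Sds, serine dehydratase, read 7.32, 6.63 and 7.05 at 12 h and 5.67, 5.52 and 4.85 at 24 h and fell by 1.66 ± 0.29 (adjusted p = 0.0109). Tat, tyrosine aminotransferase, fell by 1.44 ± 0.26 (0.0116) and Aass, of lysine breakdown, by 1.21 ± 0.35 (0.0475; 0.105 within slide 3). Cps1, the first enzyme of the urea cycle, measured on 3 against 2 arrays, differed by 0.63 (adjusted p = 0.179).

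**Figure D3:**
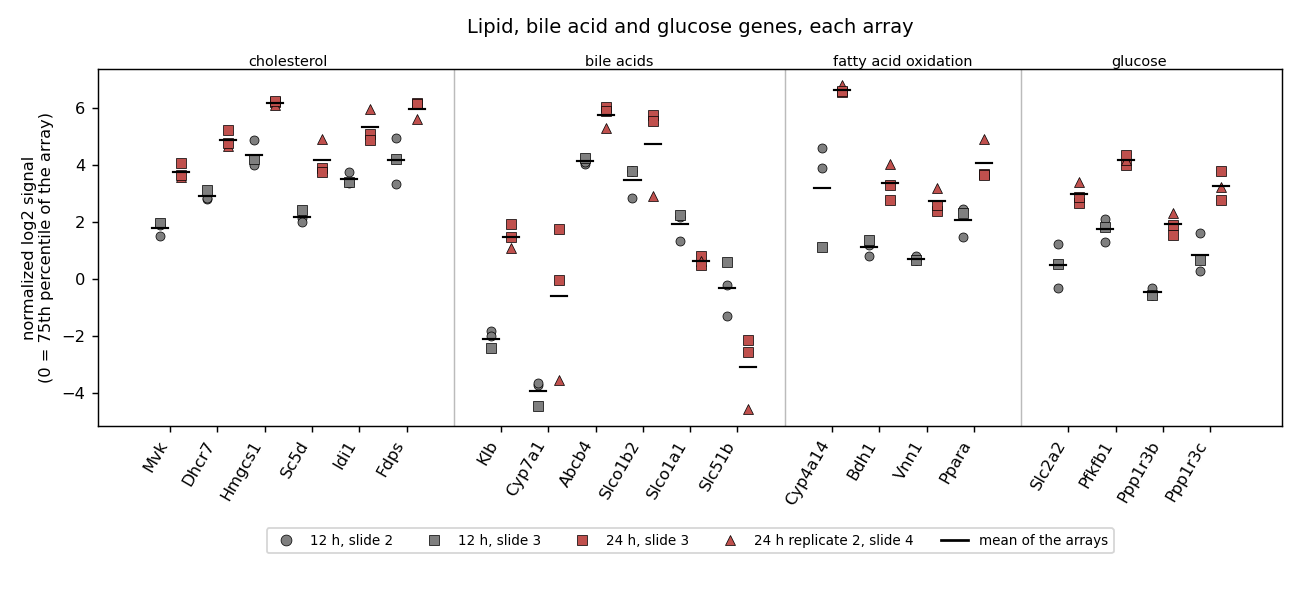
Normalized log2 signal of lipid, bile acid and glucose genes on each 12 h (grey) and 24 h (red) array, markers giving the slide and lines the group means. Klb, Mvk, Dhcr7 and Pfkfb1 are apart on every array, while for Cyp7a1 and Slco1b2 the 24 h replicate 2 triangle lies with the 12 h arrays.

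The cytochrome P450 families that handle drugs and steroids had 9 of 35 members fallen and 4 risen, with 12 and 5 without 24 h replicate 2 and 8 and 3 within slide 3. Cyp2b10, a target of the receptor CAR, read 4.62, 3.05 and 4.37 at 12 h and 0.21, -1.95 and 0.21 at 24 h. It fell by 4.52 ± 0.84 (adjusted p = 0.0129), 23-fold, to a level near the -1.21 to 0.3 of 0 h, by 3.8 (0.0141) without 24 h replicate 2, and did not pass within slide 3 (-4.16, 0.0656). Cyp2b9 fell 8.88-fold (adjusted p = 0.0426; 0.0886 within slide 3). Cyp2a4, a steroid hydroxylase, read 2.77, 1.78 and 2.25 at 12 h and -1.4, -0.67 and -0.75 at 24 h. Its 24 h arrays lay below its 0 h arrays (2.74 to 3.2) as well as those of 12 h, and it fell by 3.21 ± 0.33 (0.00171), with adjusted p = 0.000912 and 0.0106 in the other readings. Probes of near-identical P450 genes such as Cyp2a4 and Cyp2a5, or Cyp2b9 and Cyp2b10, may share signal.

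Cyp2a5, a coumarin hydroxylase, read 5.76, 5.32 and 5.18 at 12 h and 1.73, 4.76 and 1.85 at 24 h, so that 24 h replicate 2 stood 2.91 above the nearer of the other 24 h arrays. It fell by 2.64 ± 0.66 (adjusted p = 0.0331) with that array and differed by -3.63 (0.000416) without it. Cyp1a2, the caffeine oxidase, read 4.69, 4.13 and 4.59 at 12 h and 2.81, 2.15 and 2.43 at 24 h and fell 4.02-fold (0.00308). Cyp2c55 fell 8.87-fold (0.00399), Cyp3a41a 4.42-fold (0.021), Cyp2c29 2.71-fold (0.0364) and Cyp3a11, a main CYP3A enzyme of mouse liver, 2.64-fold (0.0157; 0.0524 within slide 3). Against this direction Cyp2r1, a vitamin D 25-hydroxylase, read -2.08, -2.47 and -2.71 at 12 h and 0, 1.33 and -0.24 at 24 h and rose by 2.79 ± 0.38 (SE; adjusted p = 0.00384), 2.3 (adjusted p = 0.000874) without 24 h replicate 2 and 2.59 (adjusted p = 0.00393) within slide 3, while Cyp2j5 (1.18 ± 0.29, adjusted p = 0.0302), Cyp2c39 (1.31 ± 0.38, adjusted p = 0.0477; 0.0548 within slide 3) and Cyp2d26 (1.03 ± 0.28, adjusted p = 0.0387; 0.194 within slide 3) rose less. The CAR gene itself, Nr1i3, read 0.73, 1.39 and 1.06 at 12 h and 3.55, 2.63 and 3.71 at 24 h and rose by 2.24 ± 0.31 (SE; adjusted p = 0.00415), 2.57 (adjusted p = 0.000604) without 24 h replicate 2 and 2.57 (adjusted p = 0.00639) within slide 3. The median of the list was -0.44, -0.35 and -0.36 in the 3 readings.

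Phase II enzymes, which conjugate drugs and hormones, had 9 of 39 fallen and 1 risen, 12 and 2 without 24 h replicate 2 and 9 and 2 within slide 3. Gstm3, a glutathione transferase, read 5.26, 4.3 and 3.87 at 12 h and 0.59, 3.12 and 0.25 at 24 h and fell by 3.16 ± 0.79 (adjusted p = 0.0337). The other 24 h arrays were below 24 h replicate 2 by more than 2, and without it the difference was -4.06 (0.0045). Gsta4 fell 3.45-fold (0.0281) and Gstm6 2.47-fold (0.0114), and Gstt3, measured on 3 against 2 arrays, 2.85-fold (0.0316). Gsta2 read 3.84, 3.04 and 2.47 at 12 h and -0.48, 3.03 and 0.5 at 24 h, and passed only in the other readings (-3.11, adjusted p = 0.0052). The sulfotransferases Sult1d1 (-1.24 ± 0.36, adjusted p = 0.0475) and Sult5a1 (-1.31 ± 0.27, adjusted p = 0.0197) fell, and Sult1e1, the estrogen sulfotransferase, passed only in the other readings (-2.36, adjusted p = 0.0115). Nnmt, nicotinamide N-methyltransferase, fell by 1.42 ± 0.34 (0.0301; 0.0755 within slide 3). Ugt2b35, a glucuronosyltransferase, rose by 1.58 ± 0.3 (adjusted p = 0.014). The median was -0.45, -0.5 and -0.42. With all arrays 7 fell and 2 rose when arrays were centred on coding probes.

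Genes known to differ between male and female liver were given as separate lists, since growth hormone pulses set them. Of 20 genes higher in males 2 fell and 0 rose, with 6 and 0 without 24 h replicate 2 and 4 and 0 within slide 3. The 2 that fell were the major urinary protein Mup1 and Slco1a1, and Mup1 did not pass in the other readings (-1.19, adjusted p = 0.0787; -0.46, 0.154). Of 17 measured genes higher in females 3 fell (Cyp2a4, Cyp2b9 and Cyp3a41a) and 1 rose (Cyp2c39), with 5 and 2 without 24 h replicate 2 and 4 and 2 within slide 3. Cyp2b9 and Cyp2c39 did not pass there (adjusted p = 0.0886 and 0.0548). The median of the male list was -0.69, -0.58 and -0.43, and that of the female list -0.6, -0.08 and 0.18.

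Acute phase proteins, which the liver secretes in response to IL-6 and IL-1, had 6 of 33 fallen and 0 risen, the same numbers without 24 h replicate 2, and 4 and 0 within slide 3. Cd14, the endotoxin co-receptor, read 6.15, 4.76 and 5.53 at 12 h and 1.32, 4.82 and 2.4 at 24 h. Here 24 h replicate 2 lay within the 12 h range, and Cd14 fell by 2.63 ± 0.72 (adjusted p = 0.0408) with it and differed by -3.62 (0.00147) without it, 12.3-fold. Hamp, hepcidin, the hormone that blocks iron export, read 9.59, 9.09 and 9.03 at 12 h and 5.76, 7.05 and 7.93 at 24 h and fell 5.01-fold (adjusted p = 0.0215; within slide 3, 0.1), and its paralogue Hamp2, whose probe may share signal with it, fell 6.76-fold (0.0463; 13.6-fold and 0.00336 without 24 h replicate 2). Steap4, a metalloreductase, read 8.3, 6.7 and 7.53 at 12 h and 5.57, 6.3 and 4.59 at 24 h and fell by 2.02 ± 0.46 (0.025), still above the 2.26 to 2.56 of 0 h. A2m, alpha-2-macroglobulin, fell 3.86-fold (0.0414) and Serpina3m 2.08-fold (0.0413). Neither passed within slide 3 (adjusted p = 0.111 and 0.295), and A2m did not pass without 24 h replicate 2 (adjusted p = 0.0575). The IL-1 receptor antagonist Il1rn read 2.07, 1.41 and 2.35 at 12 h and -0.38, 2.08 and -0.89 at 24 h, and passed only in the other readings (-2.58, adjusted p = 0.0025).

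The brightest plasma protein genes read near the top of each array's range. Fgg, the fibrinogen gamma chain, read 9.77, 9.86 and 8.69 at 12 h and 8.44, 6.9 and 8.55 at 24 h. On slide 3 the 12 h array and both 24 h arrays read nearly alike, while the 12 h arrays of slide 2 were higher and 24 h replicate 2, at 0.22 below its highest value, was lowest. Its difference was -1.48 (adjusted p = 0.0527) with all arrays and -0.2 within slide 3. Saa1, serum amyloid A, differed by -1.18 and 0.09, Hp, haptoglobin, by -1.21 and -0.17, and Alb, albumin, by -1.43 and -0.08 in these readings. Hamp, Scd1, Tat, Nnmt, Cyp3a11 and Mup1 also had 12 h means above 7.12, the highest value on 24 h replicate 2. Without that array they differed by -2.39, -0.92, -1.28, -1.07, -1.21 and -1.19. The median of the acute phase list was -1.05, -0.58 and -0.2.

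**Figure D4:**
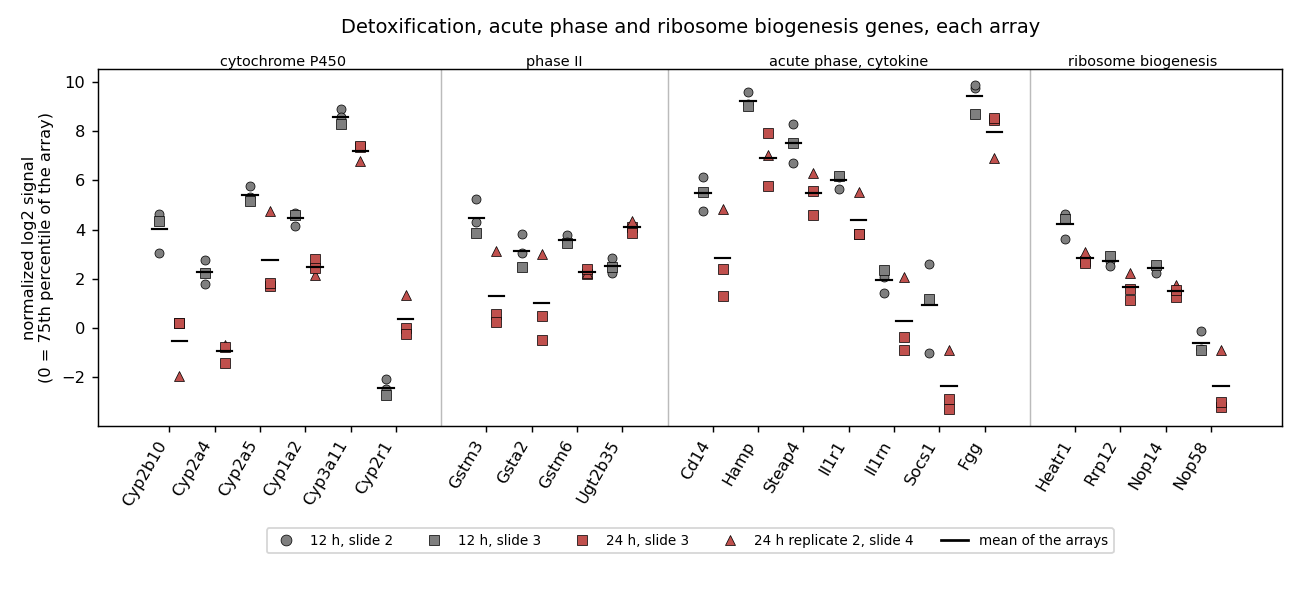
Normalized log2 signal of detoxification, acute phase, cytokine and ribosome biogenesis genes on each 12 h (grey) and 24 h (red) array, with slides as markers and group means as lines. Cyp2a4 and Cyp1a2 are lower on every 24 h array, 24 h replicate 2 lies nearer to the 12 h arrays for Cyp2a5, Gstm3, Cd14 and Il1r1, and for Fgg the arrays of slide 3 read nearly alike.

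Cytokine signalling gave 1 of 30 risen and 2 fallen, the same numbers without 24 h replicate 2 and 1 and 1 within slide 3. With all arrays both shares were near or under the 7.68% risen and 5.77% fallen over coding genes. The list's median was -0.03 with all arrays and 0.15 when arrays were centred on coding probes. Il1r1, the IL-1 receptor, read 6.16, 5.66 and 6.18 at 12 h and 3.82, 5.53 and 3.83 at 24 h and fell by 1.61 ± 0.44 (adjusted p = 0.0412). Socs1, the feedback inhibitor of JAK kinases, read 2.6, -1.02 and 1.19 at 12 h and -2.87, -0.89 and -3.3 at 24 h, with 12 h arrays spread over more than 3 log2 units and overlapping groups, and fell by 3.28 ± 0.84 (0.0356) without passing within slide 3 (0.0591). Socs3, the inhibitor of IL-6 signalling, read 3.62 to 5.51 at 12 h and 3.87 to 5.25 at 24 h, and Il6 itself differed by 0.55 ± 0.93. The chemokine Cxcl10 rose by 1.76 ± 0.41 (adjusted p = 0.0275; 0.106 within slide 3).

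Of 33 immediate early genes 2 fell, near the 5.77% over coding genes, and 0 rose, with 6 and 0 without 24 h replicate 2 and 2 and 0 within slide 3. With all arrays 0 passed when arrays were centred on coding probes or after normexp. Ier3, an apoptosis regulator, read 3.77, 2.28 and 3.61 at 12 h and 0.94, 2.6 and 0.99 at 24 h, with 24 h replicate 2 inside the 12 h range, and fell by 1.71 ± 0.5 (adjusted p = 0.048). Ccn2, a matricellular growth factor, fell by 1.09 ± 0.3 (0.0405; 0.101 within slide 3). Egr2, Klf4, Ier2 and Fosb passed as lower without 24 h replicate 2 and not with it (-1.42, -1.21, -1.8 and -0.74). Myc (-0.31), Jun (-0.27) and Fos (-0.67) did not pass in any reading. Over the list the median was -0.63, -0.61 and -0.63, below that of coding genes in each.

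Ribosome biogenesis genes had 6 of 40 fallen and 0 risen, 10 and 1 without 24 h replicate 2 and 6 and 0 within slide 3. Heatr1, of the small subunit processome, read 4.62, 3.63 and 4.45 at 12 h and 2.74, 3.1 and 2.65 at 24 h and fell by 1.4 ± 0.29 (adjusted p = 0.0182). All 24 h arrays were below the 12 h arrays and close to the 2.32 to 2.48 of 0 h. Rrp12 (-1.05 ± 0.31, adjusted p = 0.0487), Nop14 (-0.93 ± 0.24, adjusted p = 0.0365), Rrp1b (-1.18 ± 0.32, adjusted p = 0.0414), Nip7 (-0.98 ± 0.27, adjusted p = 0.0418; 0.0563 within slide 3) and Bysl (-0.94 ± 0.26, adjusted p = 0.0431; 0.105 within slide 3), factors of subunit assembly, also fell. Nop58, a core protein of box C/D particles, read -0.1, -0.84 and -0.9 at 12 h and -3.22, -0.9 and -2.99 at 24 h, and passed only in the other readings (-2.49, adjusted p = 0.0023). The list's median was -0.42, -0.42 and -0.64. With all arrays 8 fell and 2 rose after quantile normalization, 3 fell and 1 rose when arrays were centred on coding probes, and 0 passed after normexp. Of 36 cytosolic ribosomal protein genes 1 fell, Rps3 (-0.83 ± 0.24, adjusted p = 0.0482; 0.104 within slide 3), and 0 rose, with 1 and 1 without 24 h replicate 2 and 0 and 1 within slide 3.

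Heat shock genes had 4 of 18 risen and 0 fallen, the same numbers without 24 h replicate 2 and 1 and 0 within slide 3. With all arrays 2 rose after quantile normalization and 0 after normexp. Hspa4l, an HSP110-type chaperone, read -2.44, -2.44 and -2.31 at 12 h and -0.95, 0.12 and -1.17 at 24 h and rose by 1.73 ± 0.32 (SE; adjusted p = 0.0131), 1.34 (adjusted p = 0.0029) without 24 h replicate 2 and 1.25 (adjusted p = 0.0201) within slide 3. Hsph1 (1.38 ± 0.37, adjusted p = 0.0405; 0.102 within slide 3), Stip1, which links HSP70 and HSP90 (1.26 ± 0.27, adjusted p = 0.0199; 0.0543 within slide 3), and Hsp90ab1 (1.12 ± 0.32, adjusted p = 0.0465; 0.147 within slide 3) also rose. Hspa1b (0.88, adjusted p = 0.168) and Hspa8 (-0.14, 0.699) did not pass. In the endoplasmic reticulum list 2 of 25 rose, Derl3 (adjusted p = 0.0935 within slide 3) and the chaperone Calr, which was measured on 3 against 2 arrays and rose by 1.05 ± 0.3 (adjusted p = 0.0468; 0.143 within slide 3). Xbp1, the transcription factor of the unfolded protein response, fell by 1.02 ± 0.3 (adjusted p = 0.0492). Both directions of this list lay near the 7.68% risen and 5.77% fallen over coding genes. The counts were 4 higher and 2 lower without 24 h replicate 2, and 1 and 1 within slide 3. Of 31 proteasome and 43 respiratory chain genes 0 passed in limma with any of the readings, and 1 and 2 of them had an unadjusted p under 0.05 with all arrays.

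Interferon response genes had 6 of 27 risen and 0 fallen, 10 and 0 without 24 h replicate 2 and 8 and 1 within slide 3. Ddx58, the RIG-I sensor of viral RNA, read -2.57, -2.82 and -3.01 at 12 h and -0.71, -0.26 and -1.01 at 24 h and rose by 2.14 ± 0.28 (SE; adjusted p = 0.00365), 1.94 (adjusted p = 0.00175) without 24 h replicate 2 and 2.15 (adjusted p = 0.00892) within slide 3. Ifit2, of the IFIT family that binds foreign RNA, read -1.97, -1.39 and -1.95 at 12 h and -0.12, 0.19 and 0.28 at 24 h and rose by 1.89 ± 0.28 (SE; adjusted p = 0.00567), 1.85 (adjusted p = 0.00396) without 24 h replicate 2 and 2.03 (adjusted p = 0.0116) within slide 3. In both genes every 24 h array was above every 12 h array, and the 0 h arrays read -0.95 to -0.52 and -0.16 to 0.02. Ifit3 rose by 2.45 ± 0.48 (adjusted p = 0.0157), Rsad2, the viperin enzyme, by 2.15 ± 0.42 (adjusted p = 0.0157), Ifit1 by 1.46 ± 0.29 (adjusted p = 0.0172) and the sensor Ifih1 by 0.97 ± 0.28 (adjusted p = 0.0463; 0.0912 within slide 3). Isg15, the ubiquitin-like modifier, read -0.76, -1.68 and -0.95 at 12 h and 0.66, -3.06 and 0.55 at 24 h, with 24 h replicate 2 lowest of all 6, and passed only in the other readings (1.74, adjusted p = 0.00844). Usp18 (1.34, 0.027), Irf9 (0.89, 0.027) and Oasl1 (1.06, 0.0111) passed without 24 h replicate 2 and not with it. The list's median was 0.51, 0.84 and 0.77, and after normexp it was 0.31, with 0 passing.

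The letters GAAANNGAAA, the core of an interferon-stimulated response element, were searched on either strand of the 250 bases. They are held by 2.98% of all promoter windows and by 3.46% of all genes with a window. Counted per gene, 10 of 22 measured members with an entry held them (45.5%), and so did 3 of the 6 that rose. These 3 are shown, with the matches in capitals; where the match is on the opposite strand, they show its reverse complement. The Ifit1 stretch is chr19:34640755-34640843 on the plus strand, from 134 to 46 bases before the start. The Ifit3 stretch is chr19:34583343-34583446 on the plus strand, from 186 to 83 bases before it, and that of Rsad2 is chr12:26456533-26456602 on the minus strand, from 150 to 81 bases before it.
Ifit1: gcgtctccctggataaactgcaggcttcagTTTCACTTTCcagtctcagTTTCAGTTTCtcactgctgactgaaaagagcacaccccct
Ifit3: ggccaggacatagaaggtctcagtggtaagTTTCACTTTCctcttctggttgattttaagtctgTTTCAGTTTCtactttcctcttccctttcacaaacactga
Rsad2: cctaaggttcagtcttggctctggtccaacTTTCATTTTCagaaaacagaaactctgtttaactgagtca

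Macrophage and Kupffer cell markers moved beside the interferon genes. Of 15 measured 3 rose and 0 fell, with 5 and 0 without 24 h replicate 2 and 4 and 0 within slide 3. Their summed linear signal was 45.2 to 67.2 at 12 h and 71.5 to 117 at 24 h, in units of each array's 75th percentile. Adgre1, a surface receptor of mature macrophages, read -2.29, -2.2 and -2.24 at 12 h and 0.5, -0.34 and -0.6 at 24 h and rose by 2.09 ± 0.39 (SE; adjusted p = 0.013), 2.19 (adjusted p = 0.00865) without 24 h replicate 2 and 2.19 (adjusted p = 0.0326) within slide 3. Vsig4, the complement receptor of resident macrophages, rose by 1.45 ± 0.32 (adjusted p = 0.0229) and the haemoglobin scavenger receptor Cd163 by 1.78 ± 0.52 (adjusted p = 0.0475; 1.13 and 0.0558 without 24 h replicate 2). Clec4f, which is particular to Kupffer cells, differed by -0.84 (adjusted p = 0.154) and Marco by 0.45 (0.481). The part of these cells in the interferon result was not tested.

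The other marker lists had 0 to 3 members called with all arrays. The lowest 24 h sums of neutrophil and lymphocyte markers given below, 151 and 10.7, were those of 24 h replicate 2. Within slide 3, 0 neutrophil, lymphocyte, hepatocyte, endothelial and pancreas markers passed. Neutrophil markers had 2 of 12 fallen, Mmp9 (-1.27 ± 0.34, adjusted p = 0.038; 0.169 within slide 3) and Camp (-1.24 ± 0.32, adjusted p = 0.0357; 0.174 within slide 3), with sums of 333 to 394 at 12 h and 151 to 288 at 24 h. Lymphocyte markers had 2 of 14 fallen, Cd4 (-1.37 ± 0.34, adjusted p = 0.0316; 0.114 within slide 3) and Gzma (-1.38 ± 0.37, adjusted p = 0.0403; 0.242 within slide 3), with sums of 56.1 to 78.7 and 10.7 to 51.4. Of 15 endothelial markers 1 rose, the VEGF receptor Kdr (1.81 ± 0.49, adjusted p = 0.0403; 1.28 and 0.0529 without 24 h replicate 2; 0.218 within slide 3; sums 47.2 to 54.7 and 55 to 67.6), and of 16 stellate cell and matrix markers 1, the retinol esterifying Lrat (2.23 ± 0.47, adjusted p = 0.0193; 0.137 within slide 3; sums 35.2 to 40.6 and 48.7 to 104). Of 9 bile duct markers 0 passed with all arrays (sums 55.2 to 90.6 and 38.8 to 98.6), of 7 erythroid markers Car1 fell (-1.73 ± 0.39, adjusted p = 0.0241; sums 40 to 48 and 41.7 to 82.9) and 0 rose, and of 15 pancreas markers Gcg fell (-1.22 ± 0.29, adjusted p = 0.0277; 0.0749 within slide 3; sums 5.85 to 8.77 and 4.05 to 10.1). In both other readings 2 erythroid markers were higher and 1 lower. The erythroid median was -0.65, -0.05 and 0.35 in the 3 readings. Car1 was well above background on 2 of 3 arrays at 24 h, and Gcg on 2 of 3 at both times, so the sizes of their falls are uncertain. The bile duct list had 1 member higher and 1 lower without 24 h replicate 2, and 2 and 0 within slide 3. The stellate list had 1 and 1, then 0 and 1. The endothelial list had 1 and 1 without 24 h replicate 2.

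Hepatocyte markers had 1 of 10 fallen and 0 risen, with sums of 1810 to 2890 at 12 h and 804 to 1600 at 24 h, and all 10 were well above background on every array of both groups on which they were measured. The sum of 804 was that of 24 h replicate 2. No probe on that array read above 7.12, so its brightest markers could not reach their 12 h levels. On slide 3 the sums were 1810 at 12 h and 1560 and 1600 at 24 h. Of 8 adipose markers Car3, the carbonic anhydrase that hepatocytes also express, read 5.43, 4.5 and 5.53 at 12 h and 2.04, 3.11 and 1.05 at 24 h and fell by 3.09 ± 0.46 (adjusted p = 0.00543), while the sum of the list was 40.9 to 67.9 at 12 h and 9.59, 68.3 and 13.3 on the 24 h arrays. Within slide 3, 1 adipose marker was higher and 1 lower. Of 9 muscle and skin markers 3 fell with all arrays and 2 in each of the other readings. The skeletal muscle actin Acta1 read -3.01, -0.28 and 0.33 at 12 h and -3.8, -7.25 and -3.58 at 24 h, troponin Tnnc2 read -0.78, -0.61 and -1.13 at 12 h and -2.8, -5.04 and -2.71 at 24 h, and the myosin Myh4 fell 3.1-fold (adjusted p = 0.047; 0.202 within slide 3). Without 24 h replicate 2 the differences were -2.71 for Acta1 (adjusted p = 0.0401, against 0.0344 with it), -1.91 for Tnnc2 (0.00322 against 0.0175) and -1.12 for Myh4 (0.0664). The 12 h arrays varied by more than 3 log2 units for Acta1, and the muscle sums were 3.28 to 4.61 at 12 h and 1.01 to 2.61 at 24 h. Acta1 was well above background on 2 of 3 arrays at 24 h. The part of other cells or tissue in the falls of these lists was not tested.

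Growth factors and their receptors had 5 of 34 risen and 0 fallen, with 6 and 2 without 24 h replicate 2 and 5 and 1 within slide 3. The median was 0.23, -0.05 and -0.12. After normexp 0 passed. Lgr5, the R-spondin receptor found on hepatocytes around the central vein, read -4.15, -3.8 and -4.69 at 12 h and -0.23, -1.35 and -1.29 at 24 h. It rose by 3.26 ± 0.4 (SE; adjusted p = 0.00295), 3.46 (adjusted p = 0.00148) without 24 h replicate 2 and 3.94 (adjusted p = 0.0095) within slide 3, 9.57-fold, to levels in and about the -1.8 to -0.76 of 0 h. Met, the receptor of hepatocyte growth factor, read 0.4, -0.09 and 0.1 at 12 h and 1.65, 1.7 and 1.42 at 24 h, above its 0 h range of 0.77 to 1.03, and rose by 1.46 ± 0.22 (SE; adjusted p = 0.00637), 1.4 (adjusted p = 0.00287) without 24 h replicate 2 and 1.44 (adjusted p = 0.0189) within slide 3. Its ligand Hgf read -1.8 to -1.69 at 12 h and -2.1 to -1.2 at 24 h (0.24, adjusted p = 0.55). Igfals, which stabilises IGF1 in plasma, rose by 2.42 ± 0.71 (adjusted p = 0.0482; 3.37 and 0.0023 without 24 h replicate 2) and the activin subunit Inhbc by 1.88 ± 0.52 (adjusted p = 0.0413; 2.57 and 0.00152 without 24 h replicate 2). The receptor Egfr passed as lower only in the other readings (-1.01, adjusted p = 0.0295), and Igf1 differed by 0.29 ± 0.41.

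Factors of hepatocyte identity had 5 of 29 risen and 1 fallen, with 6 and 2 without 24 h replicate 2 and 3 and 0 within slide 3. Beside Nr1i3 and Nr5a2 these were Tbx3, a T-box repressor of the central zone, which read 0.18, 1.54 and 0.2 at 12 h and 3.35, 3.08 and 2.31 at 24 h and rose by 2.28 ± 0.53 (adjusted p = 0.0265; 0.0753 within slide 3), the orphan receptor Esrra (2.22 ± 0.46, adjusted p = 0.0187) and the oxysterol receptor Nr1h3 (0.97 ± 0.25, adjusted p = 0.0346; 0.128 within slide 3). Cebpd, a transcription factor of the acute phase, fell by 1.55 ± 0.37 (adjusted p = 0.0299; 0.224 within slide 3). Cebpd was well above background on 2 of 3 arrays at 12 h and on 1 at 24 h, so the size of its fall is uncertain. Hnf4a, the central hepatocyte factor, read 6.1 to 6.57 at 12 h and 6.03 to 6.77 at 24 h, with a difference of 0.02 ± 0.25, and Cebpa, which restrains hepatocyte growth, differed by 0.79 (adjusted p = 0.0747). Afp, the fetal albumin relative, passed only without 24 h replicate 2 (2.26, adjusted p = 0.0144).

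Clock genes had 4 of 24 risen and 2 fallen, with 5 and 3 without 24 h replicate 2 and 1 and 2 within slide 3. The median was 0.02, -0.05 and -0.18. Hlf, a PAR bZIP output factor, read -1.08, 0.11 and -0.79 at 12 h and 1.56, 2.64 and 1.13 at 24 h and rose by 2.37 ± 0.42 (SE; adjusted p = 0.0107), 1.93 (adjusted p = 0.00669) without 24 h replicate 2 and 2.14 (adjusted p = 0.0338) within slide 3, and its relative Tef rose by 1.37 ± 0.29 (adjusted p = 0.019; 0.0506 within slide 3). Tsc22d3 (1.36 ± 0.3, adjusted p = 0.0237; 0.164 within slide 3), a glucocorticoid target, and Wee1 (adjusted p = 0.113 within slide 3) were the other risen members. Ciart, a repressor of the clock, fell by 1.2 ± 0.29 (adjusted p = 0.0306) and Alas1, the first enzyme of haem synthesis, by 0.87 ± 0.23 (0.0373). The core genes Arntl (0.62), Nr1d1 (-0.87), Per2 (0.4) and Dbp (-0.01) did not pass. The remaining lists, coagulation (3 of 39 risen, Klkb1, Serpind1 and F11, and 0 fallen), carriers and apolipoproteins (0 of 30 risen and 2 fallen, Serpina6 and Mup1), lipid droplets (0 of 20 and 1, Pnpla2) and p53 targets (2 of 21, Gas1 and Perp, and 1, Phlda3), had medians of 0.13, -0.76, -0.23 and 0.43 with all arrays. Over coding genes 7.68% rose and 5.77% fell, and the coagulation rises are near that share. Without 24 h replicate 2 F11 (0.83, adjusted p = 0.0533) and Gas1 (1.51, 0.0602) did not pass, Pnpla2 differed by -1.1, and the medians were 0.2, -0.31, -0.04 and -0.1. The counts of risen and fallen genes without it were 2 and 1 for coagulation, 0 and 2 for carriers, 0 and 3 for lipid droplets and 2 and 2 for p53 targets. Within slide 3 none of the coagulation genes passed (adjusted p = 0.0695, 0.0782 and 0.128 for Klkb1, Serpind1 and F11). Mup1 (0.154), Perp (0.0663) and Phlda3 (0.061) did not pass there either. The counts of risen and fallen genes there were 0 and 1 for carriers, 0 and 3 for lipid droplets and 2 and 0 for p53 targets.

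Among noncoding probes falls outnumbered rises in the 3 readings. Whether this held after normexp is not known, since few probes passed there and noncoding probes were not counted apart. There 172 of all probes were higher and 19 lower with all arrays, and 14 of the lower were coding genes by their brightest probe. Without 24 h replicate 2, 299 were higher and 64 lower after normexp, 45 of the lower being coding genes. With all arrays the median difference after normexp was -0.95 over all probes and -0.51 over coding genes. Of 11274 noncoding probes, 371 rose (3.29%) and 1018 fell (9.03%), and without 24 h replicate 2 the counts were 489 (4.34%) and 964 (8.55%). Within slide 3 they were 379 (3.36%) and 430 (3.81%). The median difference was -1, -0.44 and -0.24 in the 3 readings, below that of coding genes in each. Ultraconserved elements, short genomic stretches identical between mammals, had 572 probes, of which 82 fell and 1 rose with all arrays and 52 and 1 without 24 h replicate 2. The share that fell was above the 9.03% of all noncoding probes with all arrays, but near the 8.55% without 24 h replicate 2. Their medians were -1.4, -0.61 and -0.37 in the 3 readings.

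The noncoding transcripts have the names of the array design, and those without a gene symbol are given by that name. uc008sjd read 0.49, 0.31 and 0.27 at 12 h and 3.99, 3.18 and 3.53 at 24 h. Its arrays agreed within each group to better than 1 log2 unit and did not overlap, and it rose by 3.21 ± 0.26 (SE; adjusted p = 0.0014), 3.4 (adjusted p = 0.000148) without 24 h replicate 2 and 3.49 (adjusted p = 0.0031) within slide 3. uc009nzu read -0.83, -0.96 and -1.21 at 12 h and 3.93, 1.72 and 1.96 at 24 h and rose 11.6-fold (adjusted p = 0.00415), and uc007ana rose 15.3-fold (0.00637; 0.0504 within slide 3), uc007hpe 11-fold (0.011) and uc007gsq 9.77-fold (0.00557). uc007vfy, well above background on 1 array at 12 h, rose by 3.71 ± 0.57 (adjusted p = 0.00641), and its difference was -0.02 after normexp. The largest fall was that of AK008001, which read 5.72, 5.8 and 5.9 at 12 h and 0.29, 3.65 and 1.03 at 24 h. It fell by 4.15 ± 0.67 (adjusted p = 0.00786) with all arrays and by 5.15 (0.000133) without 24 h replicate 2, which lay between the groups.

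AK038935 (-4.05 ± 1.02, adjusted p = 0.0337; -2.9 and 0.0441 without 24 h replicate 2; 0.0906 within slide 3), AK005751 (-3.79 ± 0.76, adjusted p = 0.0172; -2.91 and 0.0134 without 24 h replicate 2; 0.0782 within slide 3), uc009kfi (-3.71 ± 0.74, adjusted p = 0.0169; -2.93 and 0.0161 without 24 h replicate 2; 0.0649 within slide 3) and AK017200 (-3.54 ± 0.78, adjusted p = 0.0231; 0.149 within slide 3) fell with all arrays. Each was well above background on 1 or 2 of the 3 arrays at 24 h. The ultraconserved element probe uc.125- was not well above background on any 24 h array and was at least 4.97-fold lower than at 12 h (adjusted p = 0.0268, all arrays). Of 15 measured well-known long noncoding RNAs 1 rose and 1 fell, with 1 and 2 without 24 h replicate 2 and 0 and 2 within slide 3. Tug1, a conserved nuclear RNA, read -0.78, -0.66 and -0.69 at 12 h and -0.04, 0.76 and 0.13 at 24 h and rose by 0.99 ± 0.27 (adjusted p = 0.0394; 0.0898 within slide 3), and Miat fell by 1.21 ± 0.35 (adjusted p = 0.0485). Miat did not pass without 24 h replicate 2 (adjusted p = 0.0557) or within slide 3 (0.256). Snhg1 and Snhg3, hosts of small nucleolar RNAs, passed as lower only in the other readings (-1.14 and -1.71, adjusted p = 0.025 and 0.00245). Malat1 (-0.82), Neat1 (-0.68) and Meg3 (-1.47) did not pass in any reading. The list's median was -0.68, -0.57 and -0.43. With all arrays its 1 rise and 1 fall lay near the 3.29% risen and 9.03% fallen over noncoding probes.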

How the data were processed

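The deposited scanner files hold Agilent Feature Extraction output (version 10.5.1.1, per the submitters' processing notes), and the column used is the processed intensity, background-corrected per the file headers. Log2 of it minus the array's 75th percentile was computed; control spots and spots marked as outliers were dropped and spots of a probe averaged. Of 37246 probes, 31168 that were well above background on at least 3 arrays were kept. The authors' deposited log2 table (scaling not stated) served as an alternative. limma 3.58.1 (R 4.3.3) was fitted on all 12 arrays with a mean per time point, two-sided, adjusted over all kept probes, and tested on simulated data; the slide reading adds slide as a block. A gene was represented by its brightest kept probe. Genes were named as the 10 coding and 6 noncoding at each end past the threshold in both fits without overlap, the 6 at each end passing only without 24 h replicate 2, and list members by smallest adjusted p or by role; some genes that meet this rule are not reported here. Members and lists were chosen with earlier results of these data known. Other normalizations, filters, blocks, array weights and left-out arrays were tried. The number of arrays limits the precision.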

Additional observations from a re-analysis of the deposited data

How the results depend on the processing

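With all arrays 4063 probes passed. The count stayed within 1.5 times of this with quantile normalization, centring on coding probes, the authors' deposited log2 table, the stricter filter, 1 probe per gene, trended robust moderation, the slide as fixed or random block and a 2-fold minimum. It was 191 with normexp, 2586 without the filter on dim probes, 10604 with array quality weights and 0 with the 12 h and 24 h arrays alone, and leaving out 1 array gave 384 to 10795. Without 24 h replicate 2, 4916 passed. There the count was 363 with normexp, 8939 with array weights, 1710 with the 2 groups alone and 2771 with the slide as a block, and leaving out 1 more array gave 680 to 8453. With the replicate number as a block 1261 passed with all arrays and 2686 without 24 h replicate 2. Deviations of same-numbered arrays of 12 h and 24 h correlated at 0.089, -0.001 and -0.114, so the numbers were not taken to pair the mice. The cause of these changes was not tested.

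Of 179 named genes that passed with all arrays, 162 passed with quantile normalization, 135 of 145 in the authors' table, 131 without the filter, 95 with the replicate block, 33 with normexp and 0 with the 2 groups alone, and 44 to 169 when 1 array was left out. Signs turned for called genes under normexp only: Cenpa -0.62, Chaf1a -0.18, E2f2 -0.3, Gins2 -0.42, Lig1 -0.01, Pole -0.52, Pole2 -0.59 and uc007vfy -0.02, and without 24 h replicate 2 Cdkn1c -0.5, Cenpa -0.42, Gins2 -0.3, Pole -0.03 and Pole2 -0.45. On 24 h replicate 2, 442 kept probes were not measured.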
